A study of Mus musculus with 15 samples.

Results

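The genes described here act on the route of fatty acids from circulating lipoproteins into fat cells. Lpl, Gpihbp1, Angptl4 and Vldlr act at the capillary. Cd36, Slc27a1 and Slc27a4 act at the cell membrane, and Acsl1, Fabp4 and Fabp5 inside the cell. All 10 genes were chosen by gene symbol. Each was represented by its brightest probe set (the group of array probes for 1 transcript). Only probe sets that the platform annotation pairs with that symbol alone were used. Of the 10 genes 9 had such a probe set, out of 19938 named genes and 35557 probe sets; Acsl1, an acyl-CoA synthetase, had none in the annotation used and was not analysed here. Tissue came from 8 male mice labelled Sfrp5 KO (Q27Stop), whose allele carries a premature stop codon, and from 7 male wild-type mice, all of strain C57BL6/J. All 15 mice shared the same diet and age: high-fat feeding for 8 weeks from 4 weeks of age, with gonadal white adipose tissue taken at 12 weeks. Each mouse gave 1 Affymetrix array with values on the log2 scale, in which a difference of 1 is a doubling of signal. Whole tissue was used, so RNA of adipocytes, vessels, immune cells and the covering mesothelium is mixed.

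Lipoprotein lipase, the product of Lpl, splits the triglyceride of chylomicrons and very-low-density lipoproteins. Adipocytes make the enzyme, while GPIHBP1 on capillary endothelial cells carries it to the vessel lumen and holds it there, and ANGPTL4 inactivates it, chiefly during fasting. The released fatty acids enter cells with the help of CD36 and of the fatty acid transport proteins encoded by Slc27a1 and Slc27a4, are joined to coenzyme A by acyl-CoA synthetases, and are held in the cytosol by the fatty acid binding proteins FABP4 and FABP5. Many of these genes are known targets of PPAR gamma, the nuclear receptor that drives adipocyte differentiation.

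RefSeq promoter entries (GRCm38.p6) were at hand for 5 of the 10 genes, in 9 windows. The 250 bases before the start are shown for Cd36, which had the smallest p of the genes tested, and for Vldlr, which lies on chromosome 19 as Sfrp5 does. Capitals mark matches, on either strand, to the letters searched: the nuclear receptor half-site AGGTCA, the PPAR response element (a direct repeat of that half-site with 1 base between the copies), the hypoxia response core ACGTG, the TATA box TATAAA, the CCAAT box and the GC box GGGCGG. The first window is chr5:17835897-17836146 on the minus strand and the second is chr19:27216770-27217019 on the plus strand, the downstream one of 2 Vldlr entries.
Cd36: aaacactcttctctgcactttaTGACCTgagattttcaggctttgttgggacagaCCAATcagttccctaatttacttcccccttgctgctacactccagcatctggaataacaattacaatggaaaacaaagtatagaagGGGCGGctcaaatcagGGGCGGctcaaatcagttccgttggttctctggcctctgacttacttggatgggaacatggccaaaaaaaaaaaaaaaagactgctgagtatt
Vldlr: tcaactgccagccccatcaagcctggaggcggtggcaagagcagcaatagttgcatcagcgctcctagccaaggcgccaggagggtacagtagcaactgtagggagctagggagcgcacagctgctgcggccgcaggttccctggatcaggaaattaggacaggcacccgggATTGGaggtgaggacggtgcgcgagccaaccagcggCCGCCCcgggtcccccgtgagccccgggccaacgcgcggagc
The Cd36 window held 1 half-site at position -228 from the start, 1 CCAAT box at -195 and 2 GC boxes at -109 and -93. The Vldlr window held 1 CCAAT box at -78 and 1 GC box at -42, while the upstream Vldlr entry held none of the letters. Among 32851 windows of the same length, 14.02% held the half-site, 16.6% the hypoxia response core, 12.4% the TATA box, 33.85% the CCAAT box, 32.7% the GC box and 0.0335% the full PPAR element, which was in none of the 9 windows. A match is a description of letters and not a binding site.

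The median of an array was 6.99 to 7.07, and any pair of arrays correlated at 0.963 to 0.987. The targeted gene was lower in the knockout, with Sfrp5 at 6.69 ± 0.40 (SD, n = 8) in knockout and 7.92 ± 0.24 (SD, n = 7) in wild-type arrays and no overlap (limma adjusted p = 0.0200). That call was lost without any 1 of knockout replicates 2, 5 and 8 or wild-type replicates 2, 3, 4 and 5, where the limma adjusted p was 0.0501 to 0.0670. Adipocyte markers marked the tissue: Adipoq, the gene of adiponectin, averaged 12.70 ± 0.09 in knockout and 12.52 ± 0.12 in wild-type arrays (SD, n = 8 and 7). Of the 10 measured adipocyte markers, 5 were higher and 5 lower in the knockout, with a median log2 difference of -0.02. An unadjusted limma p under 0.05 was reached by 1 of them, and 0 passed after adjustment. Knockout replicate 2 stood apart, with a mean of 9.69 over 11 measured epididymis and testis markers, as did wild-type replicate 4 at 7.19, against 5.55 to 6.86 in the other knockout and 5.67 to 6.18 in the other wild-type arrays. Wild-type arrays hold positions 1 to 7 in the submitters' numbering and knockout arrays 8 to 15, so any effect of that numbering and genotype cannot be told apart. Precision is limited by how many arrays there are.

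No gene of the set passed the threshold between genotypes. Of the 9 measured genes 0 had a limma adjusted p under 0.05 over all probe sets, where 0.0337% of probe sets did (12 of 35557), and 0 had an unadjusted p under 0.05, where 9.97% of probe sets did (4.94% higher and 5.03% lower in the knockout). By sign, 6 of the 9 were higher in the knockout, with a median log2 difference of 0.05, while over all named genes 44.8% were higher and the median was -0.01. After quantile normalization 3 of the 9 were higher and the median was -0.02, so the balance of signs depends on the scaling. The ranges of knockout and wild-type mice overlapped for each of the 9 genes; 0.217% of all probe sets had ranges that did not. The 2 largest differences in size were those of Vldlr and Gpihbp1, both lower in the knockout. The plot of values by mouse and the plot of differences show these results.

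**Figure D1:**
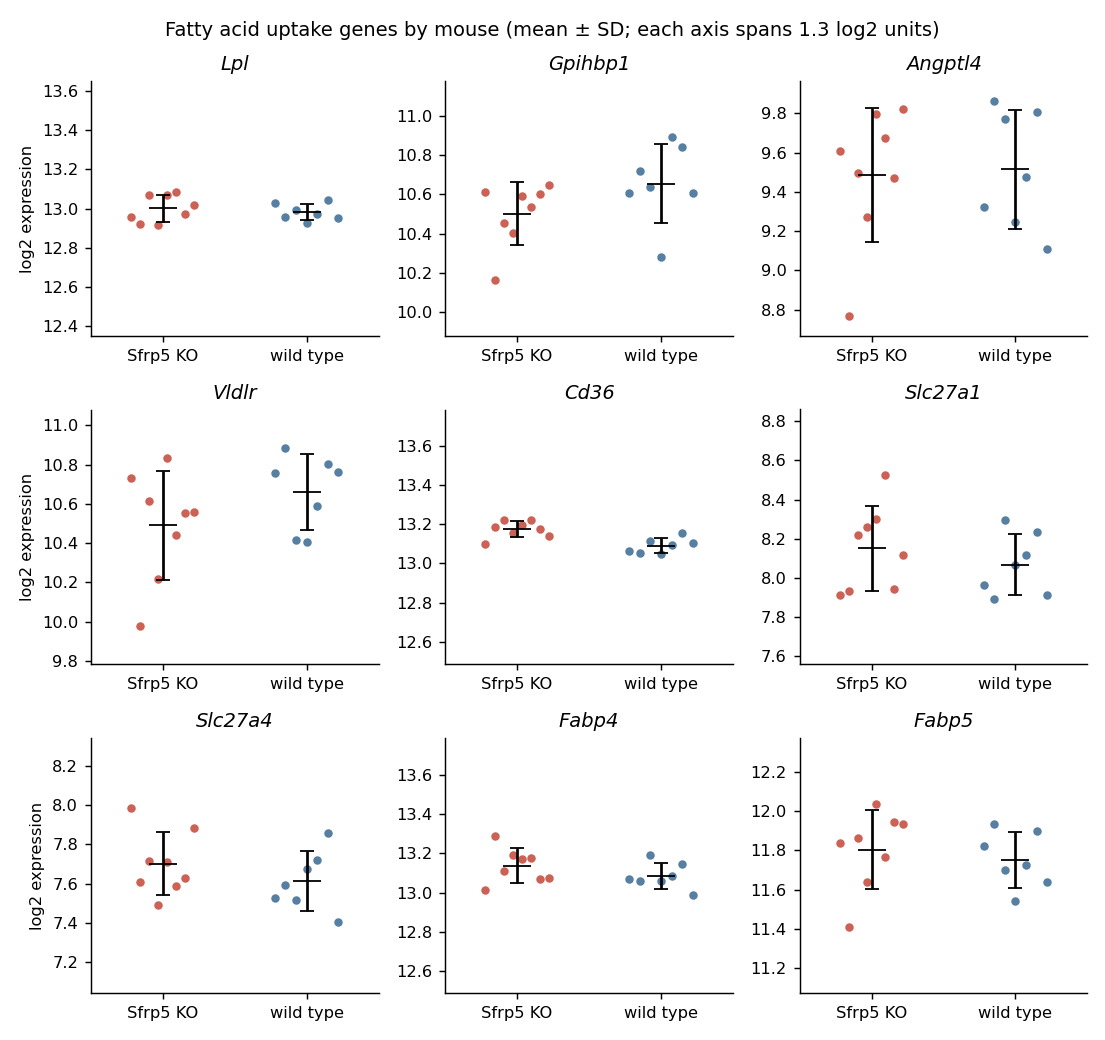
Log2 expression of the 9 measured genes in each mouse, with Sfrp5 KO (8 mice, left) and wild type (7 mice, right) in each panel. Points are mice, bars are the mean ± SD, and each vertical axis spans 1.3 log2 units. The groups overlap in every panel, and the mice spread widest for Angptl4 and least for Cd36 and Lpl.

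**Figure D2:**
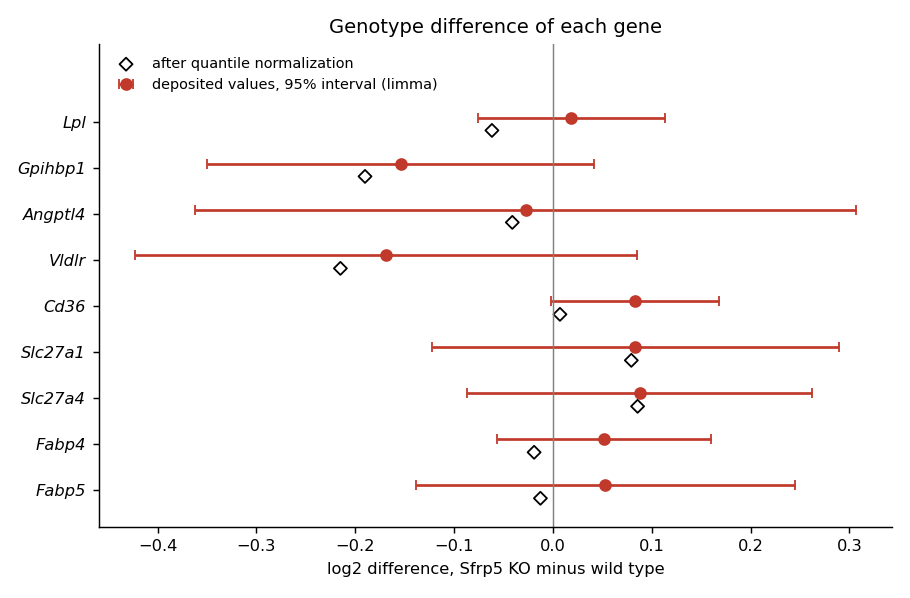
Log2 difference, Sfrp5 KO minus wild type, of each gene. Red points with bars are limma estimates on the deposited values with their 95% intervals, and open diamonds are estimates after quantile normalization. Each interval includes 0, and each diamond lies to the left of its point.

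Lpl, the lipase itself, ranged from 12.92 over a median of 12.995 to 13.09 in knockout mice, and from 12.92 over 12.97 to 13.04 in wild-type mice. The values of both genotypes cover nearly the same span. The log2 difference was 0.02 (SE 0.04; 95% interval -0.08 to 0.11; limma adjusted p = 0.936), so the interval allows a signal ratio, knockout over wild type, between 0.949 and 1.08. After quantile normalization the sign turned, to -0.06 (limma unadjusted p = 0.165), so no direction can be given.

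Gpihbp1, the endothelial anchor of the lipase, ranged from 10.16 over a median of 10.56 to 10.65 in knockout mice, and from 10.28 over 10.64 to 10.89 in wild-type mice. All 8 knockout mice lay below the wild-type mean, although the lowest wild-type mouse, replicate 4, lay below 7 of the 8 knockout mice. The log2 difference was -0.15 (SE 0.09; limma adjusted p = 0.636; unadjusted p = 0.115), a ratio of 0.899 with a 95% interval of 0.785 to 1.03. Of 16 measured endothelial markers 14 were lower by sign and 0 had a limma p under 0.05 before or after adjustment; their median log2 difference was -0.11, and their mean ranged from 8.70 to 9.15 in knockout and from 8.70 to 9.21 in wild-type arrays. Other lists differed by sign as well. All 11 mesothelial markers were higher in the knockout (median 0.41; 4 with an unadjusted limma p under 0.05, 0 after adjustment), with a mean of 7.94 to 8.69 in knockout and 7.35 to 8.63 in wild-type arrays. Of 15 macrophage markers 13 were higher (median 0.09, 1 with an unadjusted limma p under 0.05, 0 after adjustment). Over all 19938 named genes, 458 higher and 875 lower ones had such an unadjusted p. Apart from the comparison with the endothelial mean given below, the part of these lists in the Gpihbp1 value was not tested. In whole tissue, a different number of cells of a type and a different amount of RNA per cell cannot be told apart. Relative to the endothelial mean of the same array, the Gpihbp1 difference was -0.07, with p = 0.0670 when all 6435 divisions of the arrays were enumerated (exact permutation, two-sided). Relative to the adipocyte mean, the Lpl difference was 0.02 (exact permutation p = 0.708). Both of these ratios were chosen after the data had been seen.

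Angptl4, the inhibitor of the lipase, ranged from 8.77 over a median of 9.55 to 9.82 in knockout mice, and from 9.11 over 9.48 to 9.87 in wild-type mice. Its lowest value was that of knockout replicate 2, the array with the highest epididymis markers. The log2 difference was -0.03 (SE 0.16; limma adjusted p = 0.974), with an interval of the ratio from 0.778 to 1.24. The sign turned without knockout replicate 2 (0.08) and under 6 other settings, so no direction can be given. Angptl4 had the widest spread of the set, a 2.14-fold span over 15 mice.

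Vldlr, the receptor that binds triglyceride-rich lipoproteins on muscle, heart and fat, ranged from 9.98 over a median of 10.56 to 10.84 in knockout mice, and from 10.40 over 10.76 to 10.89 in wild-type mice. Knockout replicates 2 and 4, at 9.98 and 10.22, lay below every wild-type mouse, and the other 6 knockout mice lay within the wild-type range. The log2 difference was -0.17 (SE 0.12; limma adjusted p = 0.710), a ratio of 0.889 with an interval of 0.746 to 1.06. It was -0.10 without knockout replicate 2.

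Cd36, the fatty acid translocase of the plasma membrane, ranged from 13.10 over a median of 13.18 to 13.22 in knockout mice, and from 13.05 over 13.10 to 13.16 in wild-type mice. All 8 knockout mice lay above the wild-type mean, with a log2 difference of 0.08 (SE 0.04; limma unadjusted p = 0.0535; adjusted p = 0.515). The ratio was 1.06, with an interval of 0.999 to 1.12. The bright end of the arrays moved likewise: the 356 probe sets in the top percent of mean level had a median log2 difference of 0.07, with 79.8% of them higher in the knockout. After quantile normalization that median was 0.00 and the Cd36 difference was 0.01 (limma unadjusted p = 0.855). Only 48 probe sets were brighter than that of Cd36, 53 than that of Fabp4 and 85 than that of Lpl, so all 3 lie in this band, and the within-genotype SD of each was at most 0.08.

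Neither transport protein passed the test. Slc27a1 (FATP1) ranged from 7.92 over a median of 8.17 to 8.53 in knockout mice, and from 7.89 over 8.07 to 8.29 in wild-type mice; its log2 difference was 0.08 (SE 0.10; limma adjusted p = 0.847). Slc27a4 (FATP4) ranged from 7.49 over 7.67 to 7.98 in knockout mice, and from 7.40 over 7.59 to 7.86 in wild-type mice, and differed by 0.09 (SE 0.08; limma adjusted p = 0.803). The 95% interval of the ratio was 0.919 to 1.22 for Slc27a1 and 0.942 to 1.20 for Slc27a4. The highest Slc27a1 value was that of knockout replicate 6, without which the difference was 0.03, and without wild-type replicate 2 it was 0.05. The highest Slc27a4 value was that of knockout replicate 1, without which the difference was 0.05, as it was without wild-type replicate 7.

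The 2 binding proteins lie on chromosome 3. Fabp4, the abundant adipocyte form also made by endothelium and macrophages, ranged from 13.01 over a median of 13.14 to 13.29 in knockout mice, and from 12.99 over 13.07 to 13.19 in wild-type mice. Its log2 difference was 0.05 (SE 0.05; limma adjusted p = 0.815), -0.02 after quantile normalization and 0.03 without knockout replicate 2. Fabp5, the form shared by adipocytes, macrophages and skin, ranged from 11.41 over 11.85 to 12.04 in knockout mice, and from 11.54 over 11.72 to 11.93 in wild-type mice. Its log2 difference was 0.05 (SE 0.09; limma adjusted p = 0.9004). It ranged from 0.02, without wild-type replicate 4, to 0.11, without knockout replicate 2, and was -0.01 after quantile normalization. A second Fabp5 probe set, annotated with the same transcripts, gave 0.06 (SE 0.10), so the pair gave nearly the same estimate.

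The wider pathway held no call either. Of 18 measured genes of lipase maturation, lipase cofactors and lipoprotein receptors, 7 were higher and 11 lower in the knockout, 0 passed limma's adjusted threshold and 0 had an unadjusted p under 0.05. The lowest p-values there were those of Sel1l, which with Lmf1 carries the lipase through the endoplasmic reticulum (-0.16, SE 0.08), of the apolipoprotein gene Apoc1 (0.14, SE 0.07) and of the sorting receptor gene Sort1 (-0.13, SE 0.08). Of 22 measured genes of other fatty acid transport, binding and activation, 12 were higher and 10 lower, and 0 passed. An unadjusted limma p under 0.05 was reached by 458 higher and 875 lower genes among the 19938 named ones. Over all probe sets 9.97% did so. Among the 22 genes, 3 reached it. These were Fabp6, an ileal bile acid binding protein with a dim signal here (-0.21, SE 0.07), Acsl5, an acyl-CoA synthetase (-0.17, SE 0.07), and Dbi, the acyl-CoA binding protein (0.10, SE 0.04). Of 11 measured PPAR-related regulators 5 were higher and 6 lower, and 0 passed. An unadjusted p under 0.05 was reached by 1, the coactivator gene Ncoa2 (-0.11, SE 0.05, limma adjusted p = 0.452). Cebpa, the adipogenic factor, differed by 0.10 (SE 0.05) and Pparg by -0.07 (SE 0.07), neither past the threshold.

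Between mice, the pairs with the highest Pearson r over all 15 arrays were among Angptl4, Fabp5, Vldlr and Gpihbp1, and none of those that passed the test did so without knockout replicate 2. The median within-genotype SD was 0.18 for the 9 genes and 0.16 for all named genes, with Cd36 lowest at 0.04 and Angptl4 highest at 0.32. Of the 36 pairs of genes, 27 had a positive Pearson r over the 15 arrays, and the median was 0.31 (0.01 over all pairs of named genes). An r of 0.7 or higher was reached by 3 pairs, which is 8.33% against 1.09% of all pairs of named genes. Taken singly, Gpihbp1 reached it with 2.40% of the 19937 other named genes, Angptl4 with 2.93%, Vldlr with 3.66% and Fabp5 with 4.10%. The remaining measured genes did so with 0.326% (Fabp4) to 1.82% (Lpl). In a two-sided permutation test with p-values adjusted by Benjamini-Hochberg over the 36 pairs, 4 pairs passed, all positive and all among Angptl4, Fabp5, Vldlr and Gpihbp1. The 4 pairs that passed had rho with adjusted p from 0.0835 to 0.114, so none passed by rank. Arrays share normalization, tissue make-up and RNA quality, and genes that vary together need not share control.

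Angptl4 and Fabp5 had r = 0.81 (permutation p = 0.000310, adjusted p = 0.0112) and rho = 0.74. Vldlr and Fabp5 had r = 0.76 (permutation p = 0.000990, adjusted p = 0.0178) and rho = 0.65. Gpihbp1 followed Vldlr with r = 0.72 (adjusted permutation p = 0.0295; rho = 0.57) and Angptl4 with r = 0.68 (adjusted permutation p = 0.0457; rho = 0.63). All 4 genes were lowest in knockout replicate 2. Without that array the 4 values of r were 0.69, 0.61, 0.55 and 0.48, with adjusted permutation p from 0.107 to 0.247, and without the 2 arrays farthest from the median of the first gene they were 0.64, 0.54, 0.47 and 0.36. The relation thus rests in part on knockout replicate 2. Gpihbp1 with Vldlr was also lost without knockout replicate 4 or wild-type replicate 6 (r = 0.70 in each), and Gpihbp1 with Angptl4 when any 1 of 10 arrays was omitted. Within genotypes, Angptl4 and Fabp5 had r = 0.90 over 8 knockout and 0.71 over 7 wild-type arrays, and Vldlr and Fabp5 had 0.93 and 0.77. Gpihbp1 and Vldlr had 0.86 over knockout and 0.50 over wild-type arrays, and Gpihbp1 and Angptl4 had 0.94 and 0.53.

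Slc27a1 and Fabp4 were a different case. Over all 15 arrays they had r = 0.50 (permutation p = 0.0557, adjusted p = 0.143), with rho = 0.69, the second highest rho of the 36 pairs (adjusted permutation p = 0.0934). Without knockout replicate 2 they had r = 0.87 (adjusted permutation p = 0.00180) and were the only pair of the 36 to pass, as they were without knockout replicate 2 and wild-type replicate 4 (r = 0.88, adjusted permutation p = 0.00684). Within genotypes r was 0.27 over knockout and 0.89 over wild-type arrays, the second being the highest of the 36 pairs in wild type, and it was 0.45 without the 2 arrays farthest from the Slc27a1 median. Knockout replicate 2 had the highest Fabp4 value of all arrays and a low Slc27a1 value, 7.93.

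**Figure D3:**
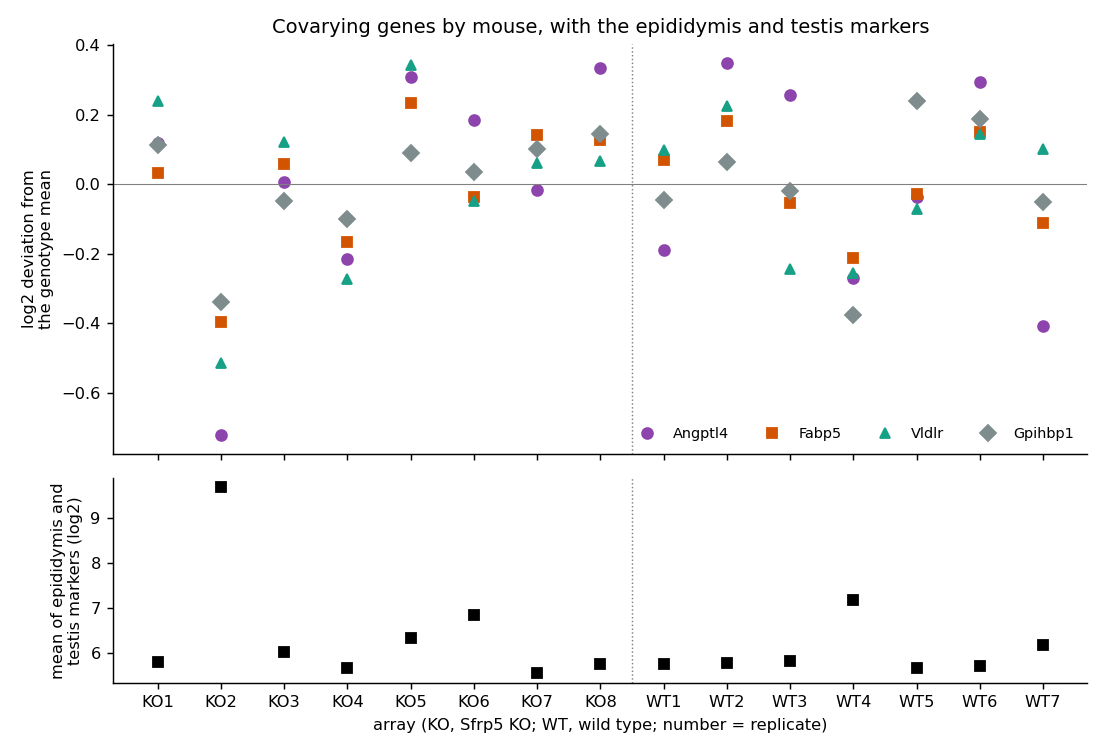
Upper panel, log2 deviation of Angptl4, Fabp5, Vldlr and Gpihbp1 from their genotype mean in each array (KO, Sfrp5 KO; WT, wild type). Lower panel, mean log2 level of the epididymis and testis markers in the same arrays. Angptl4, Fabp5 and Vldlr deviate lowest in KO replicate 2, where the marker mean is 9.69, and Gpihbp1 in WT replicate 4. All 4 genes lie below their genotype mean in both arrays and in KO replicate 4.

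**Figure D4:**
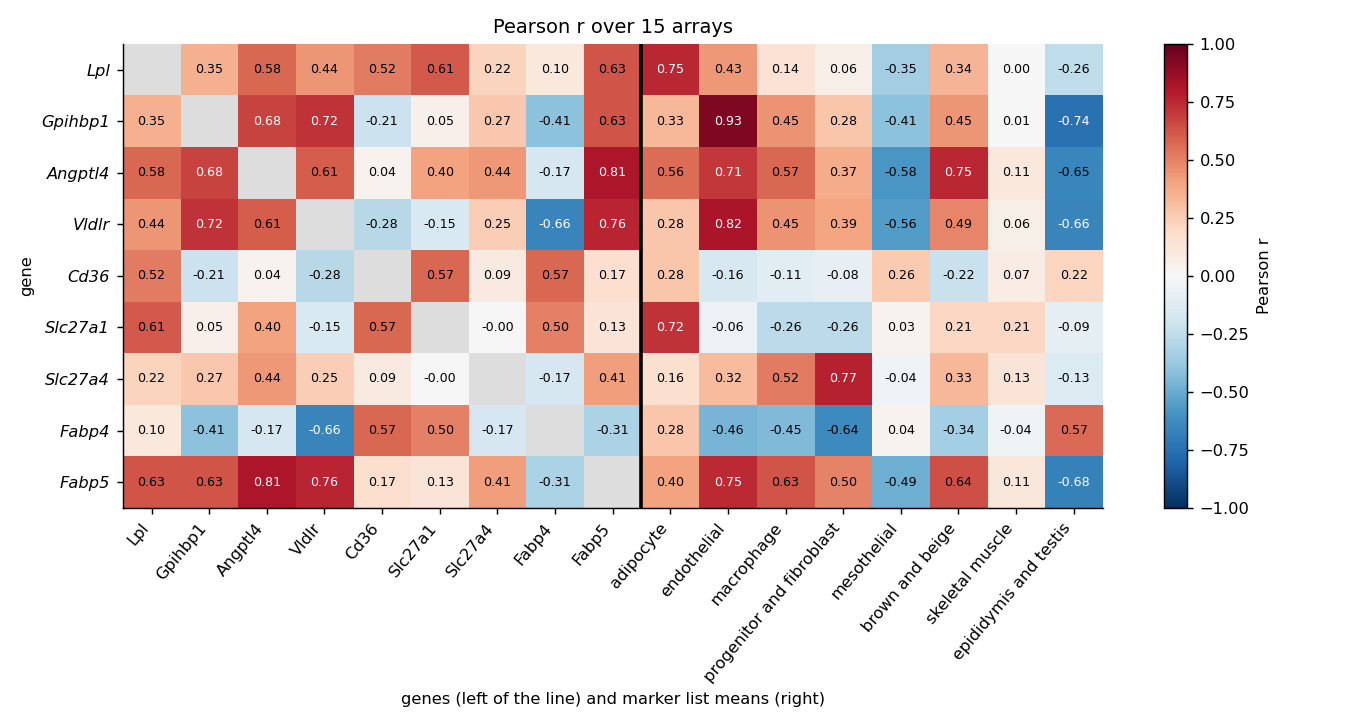
Pearson r over 15 arrays between the 9 genes (left of the line) and between each gene and the mean of 8 marker lists (right). Red is positive and blue negative. Gpihbp1 with the endothelial markers, at 0.93, is the highest value shown.

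Each gene was also set against cell type markers. Correlations with the means of 8 marker lists gave 72 relations, of which 10 passed a permutation test adjusted over the 72. How many of all named genes follow these means as closely was not computed, so the count cannot be called particular to these genes. By rank, Angptl4 and Fabp5 with the endothelial list did not pass (adjusted permutation p of rho 0.101 and 0.131). Nor did Angptl4 with the brown and beige list (adjusted permutation p of rho 0.144). With the epididymis and testis list, Gpihbp1 had rho = -0.59 (adjusted permutation p = 0.131) and Fabp5 rho = -0.40 (adjusted permutation p = 0.400). Gpihbp1 followed the endothelial markers with r = 0.93 (permutation p = 1e-05, the smallest the resamples can give; adjusted p = 0.000720) and rho = 0.93. That relation passed whichever of the 15 arrays was omitted, with r from 0.90 to 0.95. It was 0.95 within knockout and 0.92 within wild-type arrays, and 0.85 without the 2 arrays farthest from the median, which were knockout replicate 2 and wild-type replicate 4. Vldlr followed the endothelial markers with r = 0.82 (adjusted permutation p = 0.00864; rho = 0.78) and r = 0.75 without those 2 arrays; it missed the threshold without knockout replicate 2 alone (r = 0.73, adjusted permutation p = 0.0696). The plot of genes against marker lists shows that knockout replicate 2 and wild-type replicate 4 have the lowest endothelial mean of their genotype, 8.70 in both.

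Lpl and Slc27a1 followed the adipocyte markers. Lpl had r = 0.75 (adjusted permutation p = 0.0191; rho = 0.78), and 0.76 within knockout and 0.81 within wild-type arrays. Slc27a1 had r = 0.72 (adjusted permutation p = 0.0234; rho = 0.74), and 0.81 within knockout and 0.63 within wild-type arrays. Without the 2 arrays farthest from the median adipocyte mean these values of r were 0.72 and 0.65. Both missed the adjusted threshold without knockout replicate 2 (r = 0.71 and 0.70, adjusted permutation p = 0.0827 for both) and without knockout replicate 6 (r = 0.70 and 0.65), and Slc27a1 also without wild-type replicate 7 (r = 0.69). Cd36 and Fabp4, also adipocyte genes, had r = 0.28 each with the same list over 15 arrays (adjusted permutation p = 0.518 for both). Within genotypes Cd36 had 0.45 over knockout and 0.39 over wild-type arrays, and Fabp4 had -0.01 over knockout and 0.84 over wild-type arrays. Without knockout replicate 2 and wild-type replicate 4 the Fabp4 value was 0.68.

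Slc27a4 followed the progenitor and fibroblast markers instead, with r = 0.77 (adjusted permutation p = 0.0164; rho = 0.79), and 0.87 within knockout and 0.63 within wild-type arrays. Without the 2 arrays farthest from the median it was 0.47, and without knockout replicate 1 it was 0.64 and missed the threshold (adjusted permutation p = 0.0830), so it rests in part on those arrays. Angptl4 passed with the brown and beige markers (r = 0.75, rho = 0.57) and with the endothelial markers (r = 0.71, rho = 0.63), and Fabp5 with the endothelial markers (r = 0.75, rho = 0.58), but without knockout replicate 2 these were 0.55, 0.56 and 0.63 and none of the 3 passed. Without wild-type replicate 4 the endothelial relations of both genes missed the threshold as well (r = 0.72 and 0.70), as did Angptl4 with the endothelial list without wild-type replicate 2 (r = 0.67) and with the brown and beige list without wild-type replicate 7 (r = 0.72). The 2 negative relations that passed, of Gpihbp1 (r = -0.74) and Fabp5 (r = -0.68) with the epididymis and testis markers, came to -0.32 and -0.04 without knockout replicate 2 and wild-type replicate 4. The first missed the threshold without either of these arrays alone (r = -0.59 and -0.73), and the second without any 1 of knockout replicates 1, 2, 6 and 7 or wild-type replicates 2, 4 and 7 (r from -0.70 to -0.40). Fabp5 followed the macrophage markers by rank (rho = 0.84, adjusted permutation p = 0.00684), where r was 0.63 (adjusted permutation p = 0.0634) and 0.72 without knockout replicate 8 and wild-type replicate 2, the arrays with the highest macrophage mean.

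**Figure D5:**
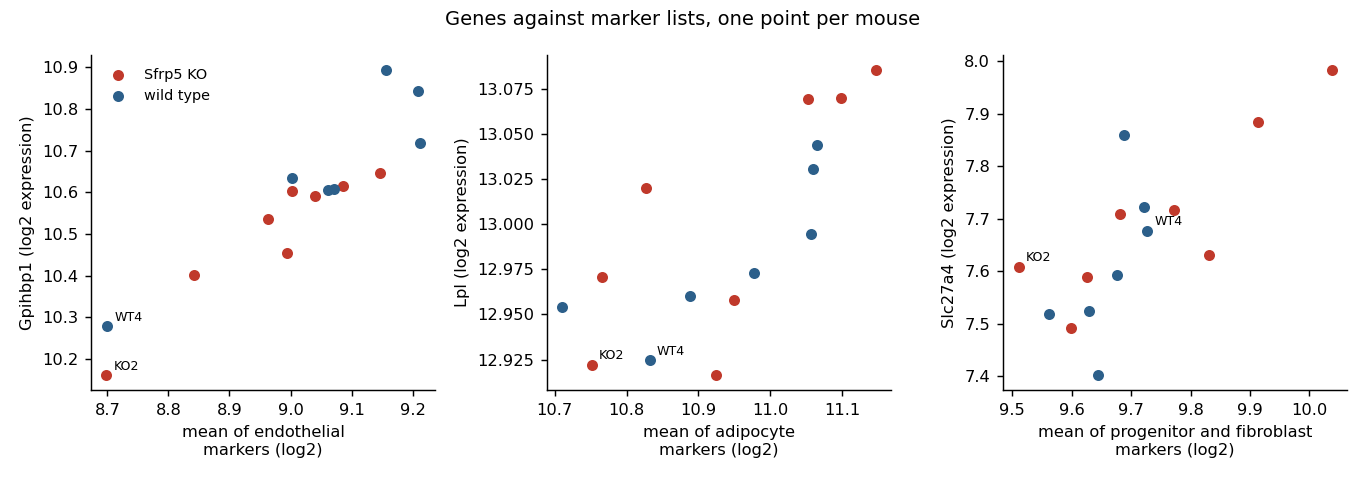
Log2 expression of Gpihbp1, Lpl and Slc27a4 against the mean log2 level of endothelial, adipocyte, and progenitor and fibroblast markers in the same array. Red points are Sfrp5 KO and blue points wild-type mice, and KO replicate 2 and WT replicate 4 are labelled. The Gpihbp1 points of both genotypes rise with the endothelial mean (r = 0.93), with the labelled arrays at the low end.

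The genes most like each member were sought among 9651 other named genes with a level at or above the median, by Pearson r over the 15 arrays on values centred on the genotype means. Vldlr was most like Dcbld2 (0.95), Sema3c (0.93) and Sptan1 (0.92), and Gpihbp1 most like Prag1 (0.93), Ablim3 (0.93) and Slain2 (0.91). Fabp5 was most like Msn, the gene of moesin (0.96), Dctn1 (0.94) and Orm1 (0.94), and Angptl4 most like Mmd, Cd59a (0.93 each) and Msrb1 (0.92). Lpl was most like Ano10 (0.95), Focad and AW549877 (0.93 each), and Cd36 most like Uqcrb, a subunit of respiratory complex III (0.89), Kif1c (0.86) and Pitpnb (0.84). Slc27a1 was most like Rccd1 (0.91), Mgst1 (0.88) and Blcap (0.86), Slc27a4 most like Znhit3 (0.86), Mief1 (0.85) and Cmtm3 (0.84), and Fabp4 most like Bmyc (0.83), Rbm39 (0.81) and Cdo1 (0.80). These are the highest of many correlations, so high values are built into the choice.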

How the data were processed

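Each deposited number is the log2 signal of a probe set. The submitters' processing notes list Affymetrix Expression Console 1.1.2800.19935, RMA, affy 1.18 and limma, whose roles are not stated. RMA corrects background and levels the arrays, so a shift shared by most genes is removed; scanner files were not used here, and which genome build the authors used is not stated here. Names came from the platform annotation, in which 21789 probe sets had 1 symbol, 1621 several and 12147 none, and 21698 of the gene IDs matched RefSeq (GRCm38.p6). The genotype comparison used limma 3.58.1 (R 4.3.3) over all 35557 probe sets, two-sided, with Benjamini-Hochberg adjustment and a threshold of 0.05. Correlations used 100000 resamples, and all permutations within 1 genotype. The set, the lists and the named genes (all members, the 3 lowest p-values of each pathway list, the 3 most alike genes) were chosen with earlier results of these data known. The fit was tested on simulated data: of 50 probe sets shifted by 0.5 on the log2 scale 60% were recovered, and of 50 shifted by 0.3, 24%. Noise was drawn independently for each probe set, and 9 unshifted probe sets were called. More probe sets were shifted than the 12 called in the data, which eases the adjusted threshold. The shares recovered may therefore be too high for the 9 genes. Figures were drawn with matplotlib 3.10.9.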

Additional observations from a re-analysis of the deposited data

How the results depend on the processing

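Under 26 alternatives per gene, 0 of the 9 genes passed limma's adjusted threshold. At an unadjusted p under 0.05, limma called Cd36 in 5 and Gpihbp1 in 3 of them, and no other gene of the set. No alternative called more than 1 of the 9 genes, while 2419 to 4020 probe sets were called (9.97% of probe sets in the main fit). Most alternatives leave out 1 array, so these counts are not independent. Signs held throughout for Gpihbp1, Vldlr, Cd36 and Slc27a4, although sizes did not. The Gpihbp1 difference was -0.217 without wild-type replicate 4. It was -0.0310 with knockout replicates 7 and 8 as the only knockout arrays (limma unadjusted p = 0.835). That of Cd36 was 0.00716 after quantile normalization. With quantile normalization Lpl (-0.0617), Fabp4 (-0.0190) and Fabp5 (-0.0126) turned sign, and when the knockout group was cut to replicates 7 and 8 Angptl4 (0.131), Slc27a1 (-0.0375) and Fabp4 (-0.0135) did. Angptl4 also turned without both knockout replicate 2 and wild-type replicate 4 (0.0311), and ranged from -0.0952 to 0.0758 with 1 array left out. The Sfrp5 difference missed the threshold at -1.17 without those 2 arrays, -0.93 in the group cut to replicates 7 and 8, -1.21 without knockout replicate 8 and wild-type replicate 2, and -1.28 under a replicate block, and ranged from -1.29 to -1.13 with 1 array left out.

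Probe sets past the threshold numbered 12, against 6 after quantile normalization, 7 after centring on medians, 26 once dim probe sets were dropped, 48 under limma's trend and robust options, 25 under array weights, 2 without knockout replicates 7 and 8, and 0 under limma in each of 4 settings: without knockout replicate 2 and wild-type replicate 4, without knockout replicate 8 and wild-type replicate 2, with knockout replicates 7 and 8 alone, and under the replicate block (2963, 3034, 3392 and 3098 at an unadjusted p under 0.05). With 1 array left out the count ranged from 0 to 133. The block moved no call of the set. The deviations of 3 of 7 same-numbered pairs correlated over 0.1 and 0 of 7 correlated best with their own number. No pairing by number was thus found. Whole-array deviations also carry tissue make-up, so this check cannot exclude one. Of the 36 gene pairs, 4 passed. On values centred on the genotype means 5 did, with Gpihbp1 and Fabp5 added (r = 0.78). After quantile normalization 4 did, where Gpihbp1 with Angptl4 was lost (r = 0.59, adjusted permutation p = 0.103) and Lpl with Vldlr passed. Without knockout replicate 2 and wild-type replicate 4 only 1 passed, which was none of the 4 but Slc27a1 with Fabp4. Within wild-type arrays 0 passed by exact permutation. Within knockout arrays those that passed were all among Angptl4, Fabp5, Vldlr and Gpihbp1 (adjusted exact permutation p = 0.04875 each). With 1 array left out 1 to 6 passed. Pairs with r of 0.7 or higher numbered 3, against 6 within knockout arrays and 1 to 5 with 1 array left out. Of the relations with marker lists 10 passed, against 11 on values centred on the genotype means and 11 after quantile normalization. Without knockout replicate 2 and wild-type replicate 4 they numbered 2, and with 1 array left out 2 to 12. The causes of these changes were not tested.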

Other observations

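Sfrp5 itself varied together with several of these genes among mice of 1 genotype, a comparison made after the data had been seen. On values centred on the genotype means, over 15 arrays and 9 relations, Sfrp5 followed Fabp5 with r = 0.77 (permutation p = 0.000650, adjusted p = 0.00585; rho = 0.72), Vldlr with r = 0.74 (adjusted permutation p = 0.00591; rho = 0.67) and Angptl4 with r = 0.73 (adjusted permutation p = 0.00591; rho = 0.71). Slc27a4 had r = 0.66 (adjusted permutation p = 0.0195) and Gpihbp1 r = 0.60 (adjusted permutation p = 0.0327), while Fabp4 ran the other way with r = -0.56 (adjusted permutation p = 0.0455; rho = -0.49). The resamples moved centred values between genotypes, although the Sfrp5 SD was 0.40 in knockout and 0.24 in wild-type arrays. These p-values may therefore be too small. Within knockout and within wild-type arrays, r was 0.79 and 0.60 for Vldlr and 0.74 and 0.74 for Angptl4. It was 0.75 and 0.50 for Slc27a4, and 0.83 and 0.33 for Gpihbp1. For Fabp5 the values of r were 0.76 within knockout and 0.82 within wild-type arrays, and 0.74 without knockout replicate 2 and wild-type replicate 4. Without the 2 arrays farthest from the Sfrp5 median they were 0.63 for Fabp5, 0.51 for Vldlr, 0.61 for Angptl4, 0.58 for Slc27a4, 0.43 for Gpihbp1 and -0.31 for Fabp4. Within knockout arrays the transcript carries the stop codon, and Sfrp5 averaged 6.69 where array medians were 6.99 to 7.07. Knockout replicates 2 and 4, at 6.15 and 6.02, lay below 6.24, the highest mean level among the dimmest 33% of probe sets. Correlations with Sfrp5 within knockout arrays thus use a low signal. There Fabp4 had r = -0.85 with Sfrp5, against 0.19 within wild-type arrays. The difference between genotypes was not tested. The share of all named genes that follow Sfrp5 as closely was not computed, so these relations cannot be called particular to this set.

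No correlation passed between Fabp4 and Fabp5, a pair of closely related binding proteins: r was -0.31 over 15 arrays (permutation p = 0.253, adjusted p = 0.433; rho = -0.18), -0.70 within knockout and 0.27 within wild-type arrays. Fabp4 was highest and Fabp5 lowest in knockout replicate 2, and without that array and wild-type replicate 4 r was -0.02.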
